A study of Homo sapiens with 9 samples.

Results

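The genes described are 9 components of type I interferon signalling, matched by gene symbol in the deposited gene tables: the receptor chains IFNAR1 and IFNAR2, the kinases JAK1 and TYK2, the transcription factor STAT2, and the interferon regulatory factors IRF1, IRF3, IRF7 and IRF9. They are 9 of 27111 genes in the tables, and all 9 were among the 17108 genes expressed highly enough to be tested. The RNA came from multicellular tumor spheroids (MTSs) of PC-3, a human prostate carcinoma cell line derived from a bone metastasis, grown in medium with Matrigel. PC-3 cells had been stably transduced with an Empty lentiviral vector, or with the vector carrying a murine cDNA of the long (NF-YAl) or the short (NF-YAs) splice isoform of NF-YA, and selected with puromycin, so all 3 lines share the vector backbone and the selection. Each library pooled many MTSs of 1 line, and each line has 3 libraries, from experiments that the study's methods call independent, labelled A, B and C for Empty and NF-YAs and A, B and D for NF-YAl. Each line was 1 transduced population as far as the sources used here tell, so differences between lines could not be told apart from differences between independent transductions, and p-values measure the spread between libraries only.

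NF-YA is the regulatory, sequence-specific subunit of NF-Y, a trimer that binds the CCAAT box of many promoters, and the long isoform carries an exon within the transactivation domain that the short isoform lacks. Type I interferons bind a receptor made of IFNAR1 and IFNAR2, on which TYK2 and JAK1 are held. The kinases phosphorylate STAT2, which enters the ISGF3 complex with IRF9, and this complex switches on interferon-stimulated genes. IRF3 and IRF7 act upstream, as factors that switch on the interferon genes themselves once pathogen sensors are triggered, and IRF7 and IRF9 are themselves interferon-stimulated genes.

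Total expected counts were between 18076979 and 27163976 per library, and ribosomal RNA took 2.66 to 7.71% of them. NFYA, the overexpressed gene, was at 89.2 to 96.7 CPM in Empty, 287 to 383 CPM in NF-YAl and 254 to 264 CPM in NF-YAs, counted on human transcripts only. CPM are counts scaled to a common library size by TMM, a factor that aligns the bulk of genes between libraries. As a check of the cell line, STAT5A and STAT5B were at 0 in all 9 libraries and STAT3 was at 1.49 to 3.23 CPM; PC-3 is known to lack these genes through a deletion. Of 6 genes taken as markers of PC-3 cells, 4 (KRT8, KRT18, KRT19 and CD44) were lower in both NF-YA lines than in Empty. KRT8 was at 268 to 313 CPM in Empty, 109 to 120 CPM in NF-YAl and 157 to 181 CPM in NF-YAs. EPCAM was higher in both (log2 fold changes of 2.16 and 1.46), from at most 1.05 CPM in Empty, and VIM was higher in NF-YAs (0.55). The 4 luminal markers given here summed to 15.9 to 22.1 CPM in Empty, 5.52 to 6.21 CPM in NF-YAl and 9.70 to 11.3 CPM in NF-YAs, with KLK3 at 0 throughout. The 4 endothelial markers summed to 40.8 to 46.3 CPM in Empty, 324 to 718 CPM in NF-YAl and 190 to 287 CPM in NF-YAs, with CDH5 at most at 0.433 CPM. Of these, KDR was at 28.2 to 32.1 CPM in Empty, 318 to 711 CPM in NF-YAl and 182 to 279 CPM in NF-YAs, while VWF was lower in NF-YAl (log2 fold change -3.23) and PECAM1 was lower in NF-YAs (-1.73). The 6 immune markers summed to 19.9 to 37.1 CPM in every library, mostly LYZ, with PTPRC at most at 0.493 CPM, and the 3 fibroblast markers summed to at most 1.02 CPM. ITGAM, an immune marker at low counts, was higher in both NF-YA lines, with means of 0.21 CPM in Empty, 0.81 CPM in NF-YAl and 1.01 CPM in NF-YAs. The PC-3, endothelial and luminal markers and ITGAM moved with the lines, and their part in the results below was not tested. In bulk RNA a smaller share of cells expressing a gene and less RNA per cell cannot be told apart.

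Because NF-Y binds the CCAAT box, the promoters are shown before the values. RefSeq promoters (build GRCh38.p14) were found for 6 of the 9 genes, namely IFNAR1, JAK1, TYK2, STAT2, IRF1 and IRF9, with 9 promoters in all. In the 250 bases before each start, 3 motifs were searched on both strands: the CCAAT box (CCAAT or ATTGG), the STAT site TTCNNNGAA and the core of the interferon-stimulated response element, GAAA followed by any 2 bases and GAAA again. Of all 35116 promoters in the table, 32.01% held a CCAAT box, 6.567% the STAT motif and 3.021% the response element. TYK2 and IRF1 held CCAAT, IRF1 and IRF9 held the STAT motif, and the response element motif was in none of the 9 windows. The 3 windows with a match are printed 5′ to 3′ on the gene's strand, with the matches in capitals. They were chosen after the matches were seen, and a match is a match of letters and not a shown binding site.
TYK2, chr19:10380573-10380822, minus strand: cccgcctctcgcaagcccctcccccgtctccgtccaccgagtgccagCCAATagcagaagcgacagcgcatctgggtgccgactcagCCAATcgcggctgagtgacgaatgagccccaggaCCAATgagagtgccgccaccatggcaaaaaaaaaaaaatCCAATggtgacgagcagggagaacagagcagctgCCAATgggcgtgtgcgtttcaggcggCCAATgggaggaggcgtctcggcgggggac
IRF1, chr5:132490774-132491023, minus strand: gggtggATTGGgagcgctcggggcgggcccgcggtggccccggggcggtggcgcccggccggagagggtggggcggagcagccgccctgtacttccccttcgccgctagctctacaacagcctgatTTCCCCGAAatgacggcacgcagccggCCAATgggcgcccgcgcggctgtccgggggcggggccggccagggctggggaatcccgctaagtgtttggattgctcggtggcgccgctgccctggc
IRF9, chr14:24161015-24161264, plus strand: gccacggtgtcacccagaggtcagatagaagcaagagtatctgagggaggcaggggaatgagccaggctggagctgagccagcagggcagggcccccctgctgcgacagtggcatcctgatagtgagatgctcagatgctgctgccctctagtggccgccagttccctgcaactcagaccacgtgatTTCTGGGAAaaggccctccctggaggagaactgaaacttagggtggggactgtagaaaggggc
The TYK2 window held 6 CCAAT boxes, which began 203, 163, 129, 90, 56 and 30 bases before the start. Only 37 of the 35116 promoters (0.1054%) held 6 or more, and the highest number in any was 8. In IRF1 the CCAAT matches began 244 and 97 bases before the start, 1 of them on the opposite strand, with the STAT motif at 124 bases. In IRF9 the STAT motif began 63 bases before the start.

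In MTSs of NF-YAl cells, 4 of the 9 genes were lower than in Empty, all of them IRFs: IRF7, IRF9, IRF1 and IRF3. None of the 9 was higher. A gene passed when its p from the quasi-likelihood F test of edgeR, adjusted by Benjamini-Hochberg over all 17108 genes, was under 0.01. By that rule 9.54% of all tested genes were lower in NF-YAl than in Empty and 10.02% were higher. With an added minimum of a 2-fold difference, IRF7 and IRF9 passed, against 3.50% of all genes. The median log2 fold change of the 9 genes was -0.48, and that of all tested genes was 0.01. In NF-YAs, 3 of the 9 genes were lower than in Empty (IRF1, IRF7 and IRF9), and none was higher, while 10.5% of all genes were lower and 12.1% higher. Without NF-YAs A, or without Empty B or Empty C, none of the 9 passed in NF-YAs. None of the 3 was lower by 2-fold, against 3.90% of all genes. The median log2 fold change was -0.25 for the 9 genes and 0.00 for all genes. Between the lines, 1 gene was lower in NF-YAl than in NF-YAs (IRF7), with 6.25% of all genes lower and 4.70% higher, and it was not lower by 2-fold, which 2.86% of all genes were. The 3 comparisons share libraries and are not independent of one another.

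**Figure D1:**
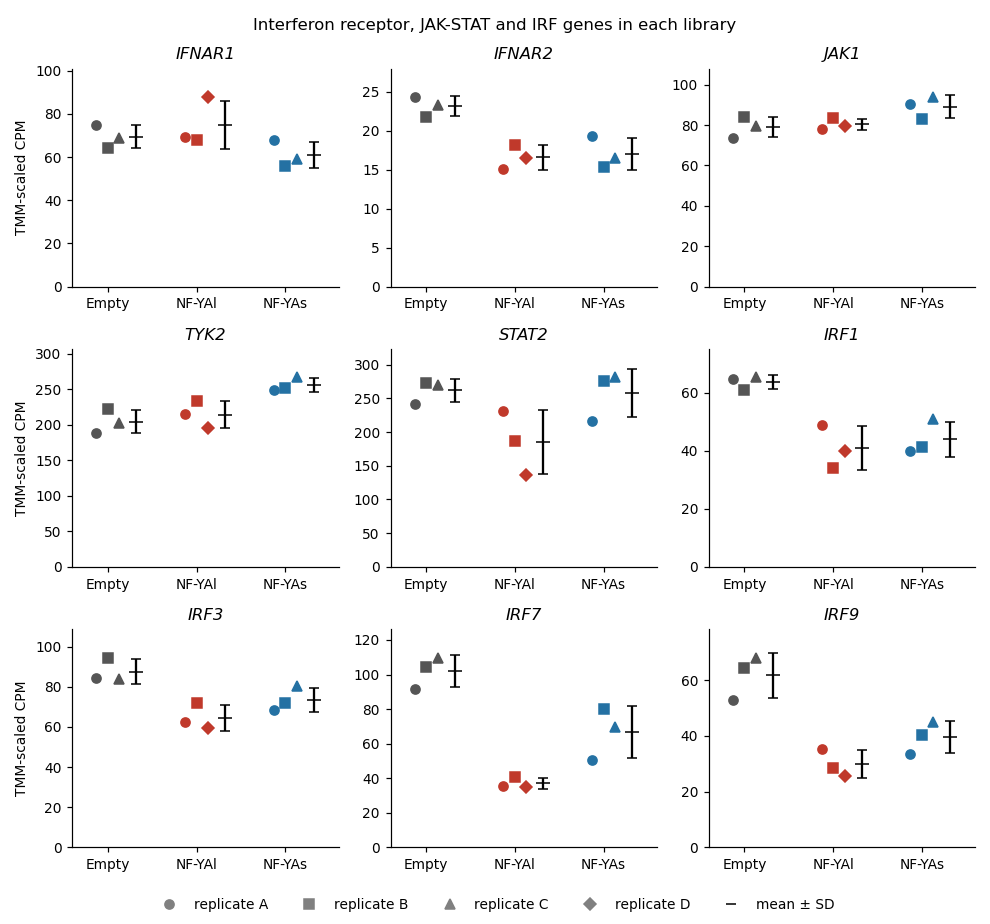
TMM-scaled CPM (vertical axis, from 0) of the 9 genes in each library of the Empty, NF-YAl and NF-YAs lines, with symbols for the replicate letter and a bar for the mean ± SD of 3 libraries. IRF7 lies at 35.0 to 40.6 CPM in NF-YAl, under all NF-YAs libraries (50.5 to 80.1 CPM) and all Empty libraries (91.6 to 110 CPM).

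Neither receptor chain passed against Empty. IFNAR1, the chain that holds TYK2, was at 74.9, 64.3 and 68.9 CPM in Empty, 69.2, 68.0 and 87.9 CPM in NF-YAl, and 67.8, 56.0 and 59.4 CPM in NF-YAs. NF-YAl D was the highest library, and each NF-YA line overlapped Empty. The log2 fold change against Empty was 0.11 (95% interval -0.15 to 0.38) in NF-YAl and -0.18 (-0.45 to 0.08) in NF-YAs, with adjusted p = 0.51 and 0.26. IFNAR2, the chain that holds JAK1, was at 24.3, 21.8 and 23.3 CPM in Empty, 15.1, 18.2 and 16.5 CPM in NF-YAl, and 19.3, 15.3 and 16.5 CPM in NF-YAs. All 6 NF-YA libraries were under all 3 Empty libraries. The log2 fold change was -0.48 ± 0.12 (SE) in NF-YAl (adjusted p = 0.011) and -0.44 ± 0.12 in NF-YAs (adjusted p = 0.015), both just outside the threshold of 0.01. Of 16 alternatives, 2 gave a call in NF-YAl and 5 in NF-YAs. With DESeq2 both passed, at adjusted p = 0.0025 and 0.0050, and with an offset for transcript length at 0.0074 and 0.0086. The NF-YAs value also passed with only the 2 groups compared (adjusted p = 0.0027) and without NF-YAl A or NF-YAl D (adjusted p = 0.0068 and 0.0080). Both chains lie on chromosome 21 (GRCh37), IFNAR2 at 34577587-34637980 and IFNAR1 at 34696692-34732170, both on the plus strand. The 100 tested genes nearest to IFNAR2 on that chromosome had a median log2 fold change of -0.29 in NF-YAl and -0.46 in NF-YAs against Empty. IFNAR2 overlaps the annotated readthrough gene IFNAR2-IL10RB and the antisense gene IL10RB-DT, and whether counting used the strand is not given in the sources used here.

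Neither kinase passed. JAK1 was at 73.8, 83.8 and 79.5 CPM in Empty, 78.0, 83.5 and 79.5 CPM in NF-YAl, and 90.5, 82.9 and 93.9 CPM in NF-YAs. The groups overlapped in every comparison, and the log2 fold change against Empty was 0.02 (95% interval -0.17 to 0.22) in NF-YAl and 0.17 (-0.02 to 0.37) in NF-YAs. TYK2 was at 189, 222 and 203 CPM in Empty, 215, 233 and 195 CPM in NF-YAl, and 249, 252 and 267 CPM in NF-YAs. The NF-YAs libraries were above all 6 others, with a log2 fold change of 0.32 (95% interval 0.11 to 0.54) against Empty and adjusted p = 0.022. It passed in 4 of 16 alternatives, among them DESeq2 (adjusted p = 0.0078) and the fit without NF-YAl D (adjusted p = 0.0085). NF-YAl overlapped Empty, with a log2 fold change of 0.07 (-0.15 to 0.28).

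STAT2, the subunit of ISGF3 with the strongest transactivation domain, was at 242, 273 and 270 CPM in Empty, 231, 187 and 137 CPM in NF-YAl, and 217, 276 and 281 CPM in NF-YAs. The NF-YAl libraries were all under Empty but spread widely, and NF-YAl A was above NF-YAs A. The log2 fold change of NF-YAl against Empty was -0.50 (95% interval -0.86 to -0.14, adjusted p = 0.036), and without NF-YAl A it was -0.69 and passed (adjusted p = 0.0027), as did the difference from NF-YAs (-0.67, adjusted p = 0.0055). NF-YAs did not differ detectably from Empty, at -0.02 (-0.38 to 0.34).

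IRF7, the factor that amplifies interferon production, had the largest difference of the 9. It was at 91.6, 104 and 110 CPM in Empty, 35.2, 40.6 and 35.0 CPM in NF-YAl, and 50.5, 80.1 and 69.4 CPM in NF-YAs. The 3 lines did not overlap, and NF-YAs A was the lowest library of its line. Against Empty, IRF7 was 2.76-fold lower in NF-YAl (log2 fold change -1.46 ± 0.15, adjusted p = 2.61e-05) and 1.53-fold lower in NF-YAs (-0.61 ± 0.15, adjusted p = 0.0068). Between the lines NF-YAl was 1.80-fold lower than NF-YAs (-0.85 ± 0.15, adjusted p = 0.0020). The NF-YAs difference from Empty missed the threshold without NF-YAs A (-0.44, adjusted p = 0.021), NF-YAs C or any 1 Empty library (adjusted p up to 0.034), and the difference between the lines missed it without NF-YAs B or NF-YAs C (adjusted p = 0.0116 and 0.0123). IRF7 lies on chromosome 11 at 612553-615983 (GRCh37, minus strand), and the 100 tested genes nearest to it had a median log2 fold change of -0.29 in NF-YAl and -0.06 in NF-YAs against Empty.

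IRF9, the DNA-binding subunit of ISGF3, was at 52.8, 64.5 and 68.2 CPM in Empty, 35.3, 28.6 and 25.6 CPM in NF-YAl, and 33.6, 40.5 and 45.2 CPM in NF-YAs. Both NF-YA lines lay under Empty, and they overlapped each other through NF-YAl A and NF-YAs A. IRF9 was 2.08-fold lower in NF-YAl (log2 fold change -1.05 ± 0.15, adjusted p = 0.00022) and 1.55-fold lower in NF-YAs (-0.64 ± 0.15, adjusted p = 0.0050), and the difference between the lines was -0.42 (95% interval -0.74 to -0.09, adjusted p = 0.061). Without NF-YAs A the NF-YAs difference was -0.53 and did not pass (adjusted p = 0.029), and the same held without NF-YAs B, Empty B or Empty C (adjusted p = 0.019 to 0.029). IRF9 overlaps an annotated protein-coding gene on the same strand and an antisense gene.

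IRF1, a factor induced by interferon through its STAT site, was at 64.8, 61.0 and 65.4 CPM in Empty, 49.0, 34.2 and 39.8 CPM in NF-YAl, and 39.9, 41.2 and 50.8 CPM in NF-YAs. All 6 NF-YA libraries were below every Empty library. The log2 fold change was -0.64 ± 0.13 in NF-YAl (adjusted p = 0.0033) and -0.53 ± 0.13 in NF-YAs (adjusted p = 0.0083), and NF-YAl against NF-YAs was -0.10 (95% interval -0.40 to 0.19). The NF-YAs call was lost without NF-YAs A, NF-YAs B or any 1 Empty library (adjusted p = 0.020 to 0.044), and the NF-YAl call without NF-YAl B or any 1 Empty library (adjusted p = 0.0102 to 0.0167). IRF1 overlaps the antisense gene IRF1-AS1.

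IRF3, the constitutively expressed factor that starts interferon production, was at 84.2, 94.6 and 83.9 CPM in Empty, 62.3, 71.9 and 59.7 CPM in NF-YAl, and 68.6, 71.8 and 80.3 CPM in NF-YAs. Both NF-YA lines lay under Empty. The log2 fold change was -0.44 ± 0.10 in NF-YAl (adjusted p = 0.0069) and -0.25 (95% interval -0.48 to -0.02, adjusted p = 0.080) in NF-YAs. The NF-YAl call was close to the threshold, with adjusted p between 0.0011 and 0.036 over all alternatives tried, and of the 9 libraries only NF-YAl B could be left out without losing it. IRF3 overlaps BCL2L12 on the opposite strand.

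**Figure D2:**
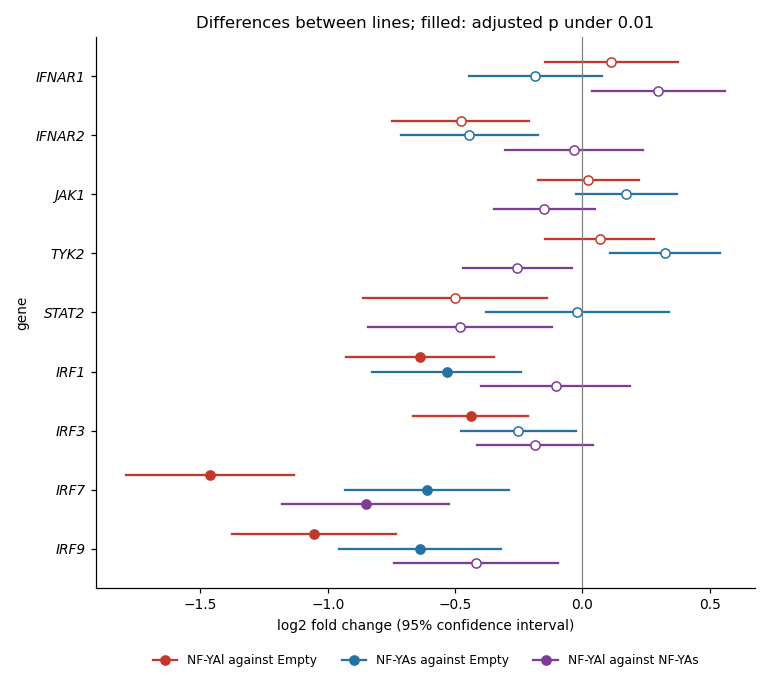
Log2 fold change with its 95% confidence interval (horizontal axis) for each of the 9 genes in 3 comparisons, with filled points where the adjusted p was under 0.01. IRF7 is farthest from 0, at -1.46 in NF-YAl against Empty, and no filled point lies above 0.

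Levels between genes were compared in TPM, which divides by transcript length. In Empty the order was IRF3 at 70.5 ± 10.4 TPM (SD, n = 3), STAT2 at 66.5 ± 6.27, IRF7 at 61.8 ± 4.38, TYK2 at 55.8 ± 5.96, IRF9 at 45.0 ± 1.47, IRF1 at 21.1 ± 3.86, JAK1 at 18.2 ± 1.995, IFNAR1 at 13.2 ± 3.19 and IFNAR2 at 12.0 ± 2.32 TPM. Among neighbours in that order, only TYK2 and IRF9, and IRF9 and IRF1, did not overlap. TYK2 had the highest mean in both NF-YA lines, at 73.3 ± 18.4 TPM in NF-YAl and 78.6 ± 4.64 TPM in NF-YAs, with ranges that overlapped those of the next gene, IRF3 and STAT2. IRF7 was in the fourth place in both, at 28.2 ± 8.14 TPM in NF-YAl, where it overlapped IRF9, and 45.2 ± 7.99 TPM in NF-YAs, where it overlapped neither neighbour. In library NF-YAl D the median TPM of the tested genes was 1.569 times the mean of the 9 libraries, while the median of CPM was 1.005 times, which widens the SD of NF-YAl on the TPM scale, and lines were therefore compared on CPM.

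IFNAR1, TYK2, IRF1 and IRF9 have 1 transcript each in the annotation that was counted, and the other 5 genes have 2 to 9. Across the 17 transcripts with a mean share of at least 5% of their gene, 6 of 51 differences between lines had no overlap, which is the smallest exact two-sided permutation p that 3 libraries against 3 allow (0.1). Among all 69309 such differences of the tested genes 14.9% had no overlap, so the shares below are given as values and not as differences between lines. For IFNAR2 the 1396-nt transcript took 34.3, 37.6 and 13.5% of the Empty libraries' IFNAR2, but 9.16, 5.30 and 4.27% for NF-YAl libraries, with 30.4, 39.3 and 30.2% for NF-YAs. The 1442-nt transcript took 0.04, 0.61 and 30.3% for Empty and 33.4, 23.2 and 39.3% for NF-YAl. Summed, the 2 short transcripts, a sum chosen after the values were seen, took 38.7 ± 4.73% (SD, n = 3) for Empty, 38.2 ± 8.44% for NF-YAl and 35.8 ± 4.90% for NF-YAs, which did not separate the lines. IRF7 was carried by 3 transcripts. Its 1972-nt transcript took 51.1, 47.4 and 58.3% for Empty, 17.0, 42.3 and 52.9% for NF-YAl libraries, and for NF-YAs 45.1, 47.8 and 45.9%, with NF-YAl A alone far below the others.

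**Figure D3:**
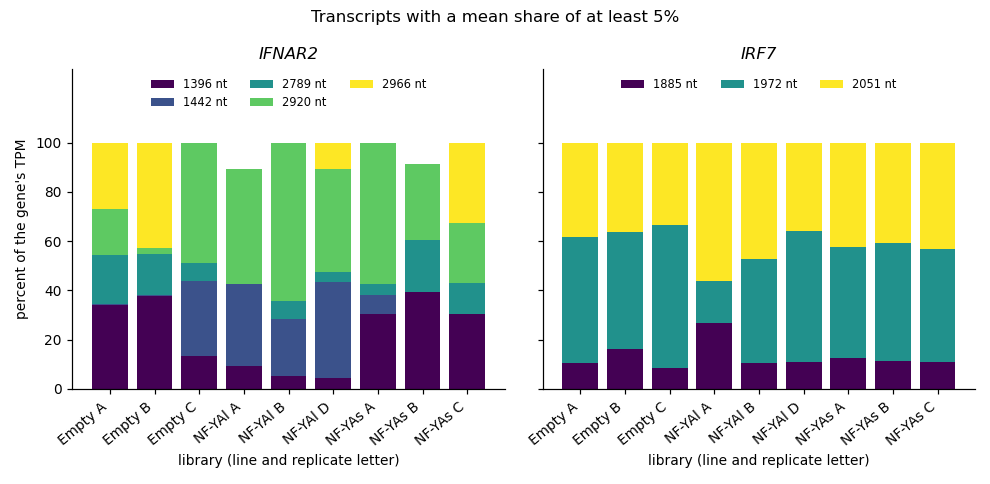
Percent of the gene's TPM taken by each transcript of IFNAR2 and IRF7 with a mean share of at least 5% (vertical axis) in each library, with colours for the transcript length in nt. The IFNAR2 1396-nt share is 4.27 to 9.16% in NF-YAl, while the 1442-nt share is 23.2 to 39.3% in the same libraries, and libraries of 1 line differ widely.

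The genes that ISGF3 and the IRFs are known to switch on were mostly lower in NF-YAl, and fewer passed in NF-YAs. Of 30 interferon-stimulated target genes, 29 were tested, and 27 of them were lower in NF-YAl than in Empty, 23 by over 2-fold, with none higher. Among all tested genes 9.54% were lower, and 3.50% by over 2-fold. Their median log2 fold change was -1.73. The other 2, CMPK2 and IFITM2, had adjusted p of 0.019 and 0.023. The summed level of the 30 genes was 3769, 3715 and 4120 CPM in Empty, 1304, 1121 and 1188 CPM in NF-YAl, and 1917, 2927 and 2894 CPM in NF-YAs, with NF-YAs A well below the other libraries of its line. In NF-YAs 11 were lower and 2, OASL and IFITM2, were higher, with a median of -0.65. The shares of all tested genes were 10.5% lower and 12.1% higher. Between the lines 25 were lower in NF-YAl than in NF-YAs and none higher, with a median of -1.16, against 6.25% and 4.70% of all tested genes. Without NF-YAs A, the library of its line with the lowest sum, the NF-YAs comparison gave 6 lower and 2 higher. Without Empty A it gave 5 lower and 0 higher. It also gave 0 higher without Empty B, NF-YAs B or NF-YAs C, and 1 higher without Empty C. The NF-YAl comparison gave 27 lower without NF-YAl D, 24 without Empty A or NF-YAl B, and 23 without Empty C.

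MX2, an interferon-induced dynamin-like GTPase, was at 41.7, 45.6 and 54.7 CPM in Empty, 5.46, 5.52 and 5.42 CPM in NF-YAl, and 7.22, 20.8 and 13.7 CPM in NF-YAs. Its log2 fold change against Empty was -3.11 ± 0.29 in NF-YAl and -1.76 ± 0.27 in NF-YAs (adjusted p = 1.2e-05 and 0.00033). MX1, the related antiviral GTPase, was at 167, 201 and 192 CPM in Empty, 30.0, 29.5 and 28.9 CPM in NF-YAl, and 69.4, 156 and 130 CPM in NF-YAs. The log2 fold change of MX1 in NF-YAl was -2.66 ± 0.23 (adjusted p = 7.6e-06), while its value in NF-YAs was -0.65 with adjusted p = 0.033. OAS1, which makes the signal that activates RNase L, was at 126, 153 and 182 CPM in Empty, 25.0, 19.6 and 18.9 CPM in NF-YAl, and 36.1, 63.5 and 58.0 CPM in NF-YAs. OAS1 was lower in both, by log2 fold changes of -2.86 ± 0.21 and -1.55 ± 0.20. IFI27 was at 16.4, 11.2 and 12.5 CPM in Empty and 1.91, 1.02 and 2.46 CPM in NF-YAl, a log2 fold change of -2.89 ± 0.29. OASL, an inactive relative of the OAS enzymes, was at 28.5, 24.7 and 39.9 CPM in Empty, 13.4, 12.7 and 15.2 CPM in NF-YAl, and 43.0, 63.2 and 55.8 CPM in NF-YAs. OASL was thus lower in NF-YAl (-1.17 ± 0.19) and higher in NF-YAs (0.80 ± 0.18) than in Empty, and was named after its values were seen. The higher call of OASL in NF-YAs was lost without Empty A, Empty B, NF-YAs B or NF-YAs C.

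**Figure D4:**
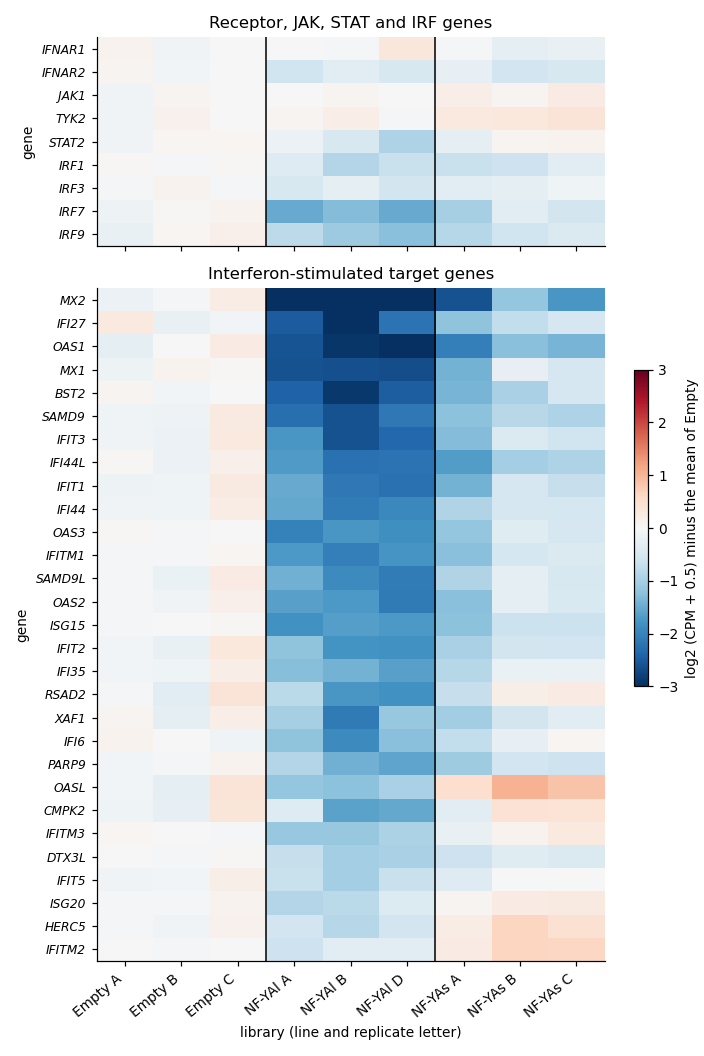
Log2 (CPM + 0.5) of the 9 genes and of the 29 tested target genes in each library, as the difference from the mean of Empty (blue lower, red higher, with colours capped at 3 in each direction). The NF-YAl columns are blue for the target genes, with the summed level at 1121 to 1304 CPM against 3715 to 4120 CPM in Empty, and NF-YAs A is bluer than the other NF-YAs libraries.

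The genes whose profile over the 9 libraries was most like that of IRF7, by the root mean square difference of centred log2 CPM among 12125 genes, were UBE2L6 (0.136), ISG15 (0.141) and TRIM21 (0.144). Among the genes most like IRF9 were APOL2 (0.0695) and C2orf82 (0.129). ISG15, a ubiquitin-like modifier, averaged 474 CPM in Empty, 142 CPM in NF-YAl and 270 CPM in NF-YAs.

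The other genes of the pathway moved in both directions. Beside the counts that follow, 9.54% of all tested genes were lower and 10.02% higher in NF-YAl than in Empty. In NF-YAs these shares were 10.5% and 12.1%. Among 5 tested JAK and STAT genes beyond the 9, 1 was lower in NF-YAl than in Empty and none higher. In NF-YAs 3 were lower and 1 higher. These 5 include STAT3, at the low level given above, and the source of its reads was not tested. JAK2, which serves the interferon-gamma receptor, was 47.3 to 48.5 CPM in Empty, 22.0 to 35.3 CPM in NF-YAl and 25.7 to 29.6 CPM in NF-YAs, with log2 fold changes of -0.71 and -0.80. Its NF-YAl call was lost in 4 of 16 alternatives (adjusted p up to 0.013). JAK3, the kinase of receptors with the common gamma chain, was at 29.9 to 32.8 CPM in Empty, 23.6 to 34.2 CPM in NF-YAl and 19.5 to 21.3 CPM in NF-YAs, and was lower in NF-YAs (-0.65, adjusted p = 0.0023). This JAK3 call was also lost in 4 of 16 alternatives (adjusted p up to 0.014). STAT6, the mediator of interleukin-4 signals, was at 19.4 to 23.9 CPM in Empty, 18.9 to 28.5 CPM in NF-YAl and 50.4 to 59.5 CPM in NF-YAs, and rose by 1.35 ± 0.15 in NF-YAs. STAT4 was at 0.599 to 0.916 CPM in NF-YAs and at 1.59 to 3.50 CPM in the other 2 lines. Its call in NF-YAs against Empty was lost in 3 of 16 alternatives (adjusted p up to 0.017). Of 3 tested IRF genes beyond the 9, IRF5 was higher in both lines, with 2.54 to 3.31 CPM in Empty, 7.43 to 10.5 CPM in NF-YAl and 6.19 to 8.16 CPM in NF-YAs, and the other 2 did not pass.

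Of 4 other interferon receptor chains, none passed in NF-YAl, and IFNGR2, the second chain of the interferon-gamma receptor, was lower in NF-YAs (log2 fold change -0.61, adjusted p = 0.0013). Among all tested genes 10.5% were lower in NF-YAs than in Empty. IFNGR1, the first chain of the interferon-gamma receptor, lay above Empty without overlap in both lines but did not pass. Its log2 fold changes were 0.67 in NF-YAl and 0.64 in NF-YAs (adjusted p = 0.011 and 0.013). IL10RB lay under Empty in NF-YAs (-0.36, adjusted p = 0.025) and did not pass. Of 21 interferon genes, 19 were under 1 CPM in every library and 8 of these were at 0 in all. IFNE, an epithelial type I interferon, was at 9.64 to 11.1 CPM in Empty, 10.98 to 12.4 CPM in NF-YAl and 6.13 to 7.38 CPM in NF-YAs, with a log2 fold change of -0.60 in NF-YAs (adjusted p = 0.0048), a call that was lost when any 1 of the 6 Empty and NF-YAs libraries was left out (adjusted p up to 0.031).

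Of 11 inhibitors of the pathway, 3 were lower in NF-YAl and 2 in NF-YAs, and none was higher in either. Among all tested genes 9.54% were lower and 10.02% higher in NF-YAl, and 10.5% lower and 12.1% higher in NF-YAs. USP18, an interferon-stimulated protease that binds IFNAR2, was at 28.3, 25.6 and 34.0 CPM in Empty, 11.1, 8.63 and 10.4 CPM in NF-YAl, and 14.2, 24.0 and 23.4 CPM in NF-YAs, with a log2 fold change of -1.55 ± 0.20 in NF-YAl. SOCS3, a feedback inhibitor of JAKs, was at 70.8 to 85.3 CPM in Empty, 27.4 to 52.0 CPM in NF-YAl and 74.1 to 79.8 CPM in NF-YAs. The phosphatase gene PTPN2 was lower in both lines (-0.40 and -0.77), a call that 9 of 16 alternatives lost in NF-YAl (adjusted p up to 0.033), and PIAS2 was lower in NF-YAs (-1.11 ± 0.09). Of 5 kinases and adaptors that act on IRF3 and IRF7, IRAK1, a kinase in the route from Toll-like receptors to IRF7, was lower in both, with 314 to 352 CPM in Empty, 147 to 160 CPM in NF-YAl and 211 to 220 CPM in NF-YAs. IKBKE and TRAF3 were higher in NF-YAs, by log2 fold changes of 0.71 and 0.72. Of 9 tested cytokine receptors that use JAK1 or TYK2, IL6R was lower in both lines (-1.05 and -1.63), LIFR was lower in NF-YAl (-0.63), IL4R was higher in NF-YAs (0.73), and the others did not pass in comparison with Empty.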

How the data were processed

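Total RNA of the MTSs was sequenced after stranded library preparation. The authors aligned reads with bowtie2 within RSEM to human transcripts of the hg19 build, and deposited expected counts, TPM and, for transcripts, the percent of the gene's TPM. The deposited expected counts are estimates that share ambiguous reads and are not normalized, and the deposited TPM are scaled within each library. The deposited lengths were used only for an offset. Expected counts were rounded, filtered with filterByExpr, scaled by TMM and fitted for all 9 libraries with edgeR 4.0.16 in R 4.3.3, with Benjamini-Hochberg adjustment over 17108 genes. SEs are |log2FC| over the square root of F. Groups came from the sample labels. In tests on simulated data, estimates were unbiased and large changes were nearly all recovered, but many changes of 2-fold or less were missed and false calls took a larger share than the nominal rate. The limits this self-test had to meet were relaxed after its first runs had missed them, and it was then repeated over more draws. Transcript shares were compared by an exact permutation test.

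The 9 genes, the lists, the motifs and the tests were chosen with earlier results of these data known. Named in addition to the 9 were up to 4 genes per list, with the largest |log2FC| at an adjusted p under 0.01, a mean of at least 1 CPM and no overlap. For the 2 genes that changed most, the 3 closest profiles among genes averaging at least 5 CPM were named. Alternatives were DESeq2 1.42.0, RLE scaling, other filters, only the 2 groups compared, the replicate block, a length offset, other thresholds and leaving out each library. Positions came from GENCODE on GRCh37. Tables were read with pandas 2.3.3 and figures drawn with matplotlib 3.10.9. A few genes that the lists or rules would name are left out here. The human tumor datasets of the study were not analysed here.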

Additional observations from a re-analysis of the deposited data

Results flagged for a closer look

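Tested directly against each other, the NF-YA lines differed past the edgeR threshold for IRF7 among the 9 genes, with a log2 fold change of -0.85 (adjusted p = 0.0020). Among the named interferon-stimulated genes it passed for MX2 (-1.35), IFI27 (-2.05), OAS1 (-1.31), MX1 (-2.01) and USP18 (-1.04), all lower in NF-YAl. OASL (-1.97), ISG15 (-0.92) and IFITM2 (-0.93), also lower in NF-YAl, passed too, and the alternatives below were not followed for them singly. Among other pathway genes it passed for STAT6 (-1.29), SOCS3 (-0.98), IL4R (-0.52), IRAK1 (-0.49) and IKBKE (-0.68), which were lower in NF-YAl, and for STAT4 (1.75), PIAS2 (0.91), IFNE (0.77) and IL6R (0.58), which were higher in NF-YAl. Of 16 alternatives, 10 lost the call for IL4R (adjusted p up to 0.048), 7 for IL6R (up to 0.035), 6 for MX2 (up to 0.024, with -0.94 as the smallest difference), 4 each for USP18, SOCS3 and STAT4, 3 for IRAK1, 2 each for IRF7 and IFNE and 1 for IKBKE. SOCS3 was lower than Empty in NF-YAl and at -0.00 on the log2 scale in NF-YAs, and STAT6 and PIAS2 differed from Empty in NF-YAs.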

How the results depend on the processing

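Of 432 values of the 9 genes under 16 alternatives and 3 comparisons, 378 kept their direction and their side of the threshold, 30 lost a call, 13 gained one and 11 changed sign, none of them called; for the named pathway genes 911 of 1008 held, 67 lost a call and 16 gained one. IRF7 and IRF9 in NF-YAl against Empty passed under every one, with log2 fold changes of -1.54 to -1.38 and -1.19 to -0.86. Leaving out 1 library at a time gave 2 to 4 of the 9 genes lower in NF-YAl against Empty, 0 to 4 lower and 0 to 1 higher in NF-YAs against Empty, and 0 to 2 lower in NF-YAl against NF-YAs. For the target genes, a choice of result made after seeing the data, it gave 23 to 28 lower in NF-YAl against Empty. In NF-YAs against Empty it gave 5 to 15 lower and 0 to 2 higher, and 16 to 28 were lower in NF-YAl against NF-YAs. None of the 9 passed in NF-YAs against Empty without Empty B, Empty C or NF-YAs A, and none between the lines without NF-YAs B or NF-YAs C. Adding a minimum of 2-fold left 2 of the 9 lower in NF-YAl and 0 in the other comparisons, and 4 target genes lower and 0 higher in NF-YAs; an adjusted p under 0.05 gave 18 lower. TYK2 counted as 1 higher gene in NF-YAs with DESeq2, with only the 2 groups compared and with an adjusted p under 0.05. The cause was not tested. Signs changed without 1 library for IFNAR1 (-0.014 to 0.18), JAK1 (-0.012 to 0.068), STAT4 (-0.095 to 0.51), STAT6 (-0.13 to 0.18), JAK3 (-0.22 to 0.034) and IKBKE (-0.048 to 0.13) in NF-YAl against Empty, for STAT2 (-0.090 to 0.093) and SOCS3 (-0.054 to 0.079) in NF-YAs against Empty, and for IFNAR2 (-0.11 to 0.061), IRF1 (-0.25 to 0.017) and JAK2 (-0.057 to 0.26) between the lines, and for SOCS3 without a filter (0.0026).

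The labels do not say that a letter marks a shared experiment, and the libraries were not treated as paired, though pairing was not excluded: the correlation of deviations from the group means was between -0.07 and 0.25 over the 7 same-letter pairs (mean 0.086), and its mean over the 20 other pairs was -0.03. With the replicate block, IFNAR1 was at -0.021 and JAK3 at 0.034 in NF-YAl against Empty, SOCS3 at 0.001 in NF-YAs against Empty and JAK2 at -0.066 between the lines. The block gave 3 of the 9 genes lower in NF-YAl against Empty (IRF3 was lost, adjusted p = 0.013), 3 lower and 1 higher (TYK2) in NF-YAs, and 1 lower between the lines, and 26, 16 and 21 target genes lower against 27, 11 and 25 without it. With 3 libraries per line, the narrowest interval among the 9 genes, that of JAK1 in NF-YAl against Empty, ran from -0.17 to 0.22 on the log2 scale. Differences wider than this interval could still miss the threshold, as did TYK2 in NF-YAs against Empty (0.32, adjusted p = 0.022 by edgeR). The smallest difference that passed was that of IRF3 in NF-YAl against Empty (-0.44).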
